A study of Mus musculus with 8 samples.

Results

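A set of 8 genes that regulate or mark neural development, *Neurog3*, *Foxb1*, *Pax6*, *Pax3*, *Nes*, *Pou3f2*, *Irx3* and *Gbx2*, were followed by RNA sequencing in mouse embryonic stem (ES) cells of 4 *Tbxt* genotypes at day 1 of in vitro differentiation. They are 8 of the 48440 genes in the count files, and were listed by name with results of these data already known, so their own values are given as a description without a test. MK6 ES cells, made from C57BL/6J mice, are the parent of every line, and each genotype was sequenced in 2 libraries. Wild-type (WT) cells served as controls. *TbxtΔexon6/Δexon6* cells lack exon 6 of *Tbxt* on both alleles, *TbxtΔexon6/+* cells lack it on 1 allele, and *TbxtinsASAY/insASAY* cells carry an inserted pair of human AluSx1 and AluY elements around exon 6 on both alleles. All cells were cultured in a neural basal medium (N2/B27) without the factors that hold ES cells undifferentiated and were then given the GSK3 inhibitor CHIR99021, which activates Wnt signalling. Each *TbxtΔexon6/Δexon6* library is from a clone of its own, and the sources used here do not say whether the other pairs come from 1 clone or more, so that differences between genotypes and between clones of 1 line cannot be told apart and the spread between replicates may be technical.

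In the early embryo, neural fate is laid down by transcription factors that give each region of the neural plate its identity and by proneural factors that later drive single cells into neuronal differentiation. *Tbxt* (also called Brachyury, listed as T in the annotation) acts on the mesodermal side of the same choice, in neuromesodermal progenitors that can give rise to both spinal cord and mesoderm. Wnt signalling, which the inhibitor CHIR99021 switches on, favours posterior over anterior identities in that setting.

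*Neurog3* encodes a basic helix-loop-helix proneural factor best known for starting endocrine differentiation in the pancreas. *Gbx2* encodes a homeodomain factor of the anterior hindbrain that positions the midbrain-hindbrain boundary, and is also a target of LIF signalling in ES cells. *Pou3f2* (also called Brn2) encodes a POU-domain factor of neural progenitors and neurons. The 250 bases upstream of the RefSeq transcript start are shown for these 3 genes, because they include the member with the widest range between genotypes (*Neurog3*), a member whose libraries did not overlap between any of the 4 genotypes (*Gbx2*) and the member with the fewest reads (*Pou3f2*). RefSeq promoters on GRCm38.p6 were matched for 6 of the 8 genes (not for *Foxb1* and *Pax3*), with 7 promoters in all. Capitals mark matches, on either strand, to the E-box CACGTG, to the N-box CACNAG bound by Hes repressors or to the TCF/LEF motif CTTTGAT, and the half-site TCACACCT of *Tbxt* was searched as well. The upstream window of *Neurog3* is at chr10:62132840-62133089 on the plus strand, that of *Gbx2* at chr1:89931177-89931426 on the minus strand and that of *Pou3f2* at chr4:22488367-22488616 on the minus strand.
Neurog3: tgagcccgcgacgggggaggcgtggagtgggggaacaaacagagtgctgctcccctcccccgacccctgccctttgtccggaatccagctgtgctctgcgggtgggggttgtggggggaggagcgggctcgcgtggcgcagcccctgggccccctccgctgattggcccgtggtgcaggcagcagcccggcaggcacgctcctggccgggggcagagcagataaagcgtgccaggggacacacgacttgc
Gbx2: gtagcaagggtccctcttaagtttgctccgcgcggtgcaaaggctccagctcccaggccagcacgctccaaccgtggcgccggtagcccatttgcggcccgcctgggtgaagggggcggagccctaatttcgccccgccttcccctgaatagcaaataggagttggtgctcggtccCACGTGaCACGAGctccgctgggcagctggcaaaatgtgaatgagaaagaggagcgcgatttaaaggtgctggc
Pou3f2: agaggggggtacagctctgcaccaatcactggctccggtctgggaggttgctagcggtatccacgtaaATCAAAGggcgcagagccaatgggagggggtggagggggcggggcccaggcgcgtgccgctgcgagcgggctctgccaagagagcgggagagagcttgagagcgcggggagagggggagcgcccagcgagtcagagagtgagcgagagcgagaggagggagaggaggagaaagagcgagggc
The *Gbx2* window held 1 CACGTG and 1 CACNAG match beside each other, and the *Pou3f2* window held 1 CTTTGAT match, read here on the opposite strand. One of the 2 *Pax6* promoters held 1 CACNAG match. The other windows, that of *Neurog3* included, held none of the 4 motifs. Over 32817 mouse promoters of the same length, 6.02% held CACGTG, 36.7% CACNAG, 3.21% CTTTGAT and 1.12% TCACACCT, so the matches describe letters in these windows and not sites of binding. Their GC content was 71.2% for *Neurog3*, 66.8% for *Pou3f2* and 61.6% for *Gbx2*.

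Reads counted on genes came to between 24618587 and 28445952 per library. Levels are given as CPM, read counts brought to a common library total after TMM normalization, and a count of 3 reads corresponds to 0.108 to 0.123 CPM. The *TbxtΔexon6/Δexon6* libraries stood apart from the other pairs, since their counts differed by 10.5 times the chi-square expected from sampling alone (per degree of freedom) against 2.65 to 3.27 in the other genotypes. Fitted values of the 8 genes in this genotype are therefore given without each of its libraries as well. Of 20 calls of other named genes against WT in this genotype, 15 held without either of its libraries and the 5 that were lost without the second are named below. The edited gene *Tbxt* was counted 47 and 42 times in WT, 26 and 22 times in *TbxtΔexon6/Δexon6*, 39 and 54 times in *TbxtΔexon6/+* and 30 and 29 times in *TbxtinsASAY/insASAY* libraries. A count per gene does not show whether exon 6 was used. An allele without exon 6 gives no reads from that exon, which by itself lowers the count of *Tbxt*. Summed markers of pluripotent cells ran from 1348 to 1506 CPM in *TbxtΔexon6/Δexon6*, 1551 to 1607 in *TbxtΔexon6/+* and 1567 to 1636 in *TbxtinsASAY/insASAY* libraries, below 1841 to 1875 in WT. Of the 12 markers, 4, 5 and 2 passed both thresholds (given below) as lower and 0, 2 and 0 as higher in these lines. Over all tested genes, 12.7%, 13.5% and 21.3% passed in either direction. *Dppa5a* made up much of the gap, with 544 CPM in WT and 200, 182 and 270 CPM in these lines. *Lin28a* had 292 CPM in WT and 393, 513 and 372 CPM in the same order. Summed markers of embryonic fibroblasts, the cells used as feeders in some cultures of the study, ran from 661 to 712 CPM in *TbxtinsASAY/insASAY* libraries against 1635 to 1656 in WT, and from 992 to 1131 and 1158 to 1180 in *TbxtΔexon6/Δexon6* and *TbxtΔexon6/+* libraries, and 7, 3 and 2 of the 9 tested markers of 11 fell (2 rose in *TbxtΔexon6/+*). Most of each sum was *Fn1* and *Tagln*. In WT, *TbxtΔexon6/Δexon6*, *TbxtΔexon6/+* and *TbxtinsASAY/insASAY* cells *Fn1* had means of 1226, 683, 957 and 538 CPM. *Tagln* had 377, 346, 173 and 127 CPM in the same order. Of the rest, *Col3a1*, *Postn* and *Lum* were scarce, with 0.642, 0.0553 and 0.220 CPM in WT. *Acta2*, *Col1a1*, *Col1a2* and *Dcn* had 17.6, 13.0, 5.11 and 2.18 CPM in WT. They had 5.82, 5.22, 3.12 and 1.39 CPM in *TbxtinsASAY/insASAY* cells. *Thy1* and *Col6a3* went the other way, from 2.83 and 1.06 to 3.10 and 1.64 CPM. Whether the sum follows a share of fibroblasts was not tested. Per the study's methods the cells were differentiated without feeders, and of the edits used here only the Alu insertion was made in cells grown on them. The part of these genes in the results below was not tested.

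Of the 8 genes, 7 could be compared across all genotypes, with at least 10 reads in both libraries of every genotype. *Pou3f2* was too low to compare except where *TbxtΔexon6/+* libraries enter, as its 2 to 9 reads in the 6 other libraries lie near or below the 10 reads that the filter asks for, and it passed that filter only through the *TbxtΔexon6/+* libraries. *Nes* was the only abundant member, with a mean of 108 CPM over the 8 libraries and only 11.8% of tested genes above it. *Irx3* and *Gbx2* followed with 8.39 and 7.22 CPM, and *Foxb1*, *Neurog3*, *Pax6* and *Pax3* lay between 1.83 and 3.69 CPM, with 68.7% to 76.4% of tested genes above them. Per kilobase of annotated exon, mean WT levels were 14.3 CPM for *Nes*, 2.99 for *Irx3*, 1.32 for *Gbx2*, 0.535 for *Neurog3*, 0.314 for *Pax3*, 0.251 for *Foxb1*, 0.219 for *Pax6* and 0.0231 for *Pou3f2*. Per kilobase in *TbxtinsASAY/insASAY* cells, *Neurog3* (5.50 CPM) and *Gbx2* (5.33 CPM) came next after *Nes* (17.2 CPM). In these bulk libraries, fewer cells that express a gene and less RNA per cell cannot be told apart.

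**Figure D1:**
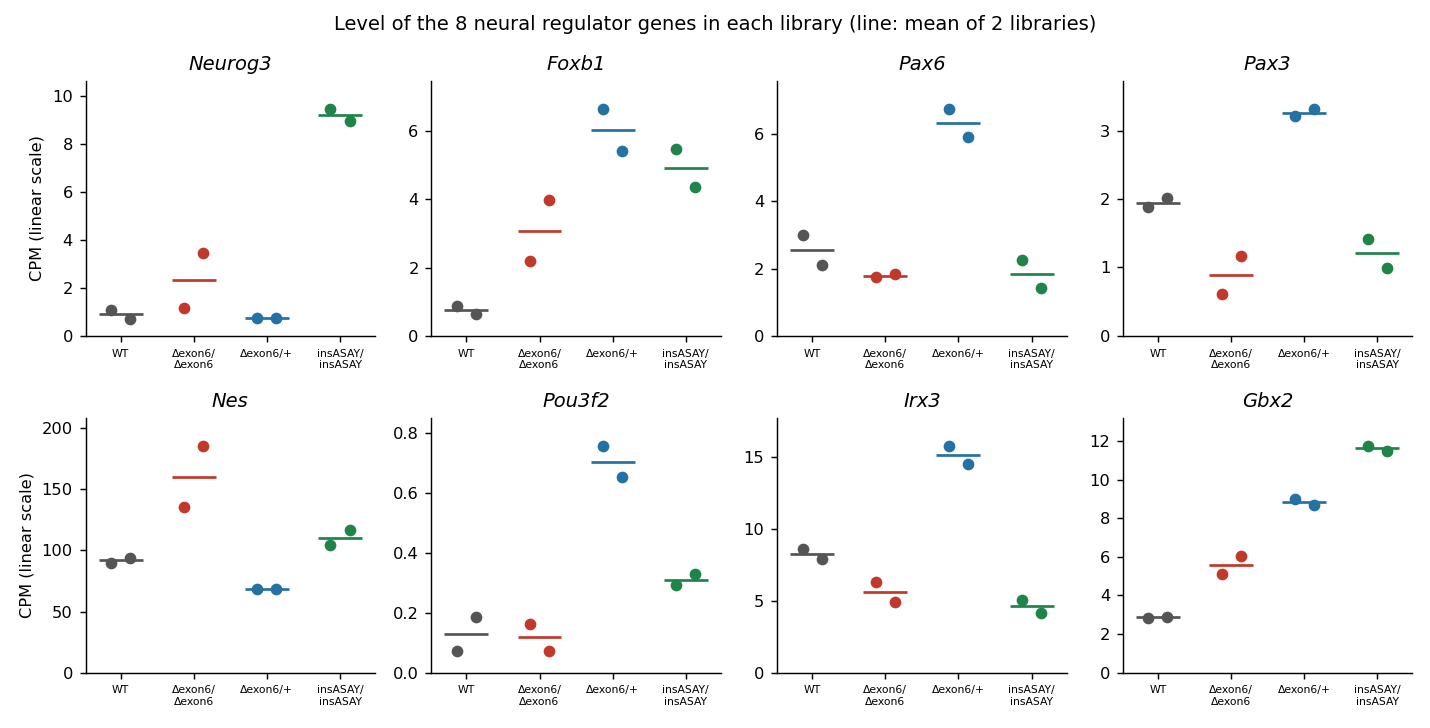
Levels in CPM (linear axis from 0) of the 8 genes in each of the 8 libraries, with 2 points per genotype and a line at their mean. Neurog3 was high in both insASAY/insASAY libraries (8.97 and 9.44 CPM), Pax6, Pax3, Pou3f2 and Irx3 were highest in both Δexon6/+ libraries, and Gbx2 took 4 separate levels from WT to insASAY/insASAY.

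*Neurog3*, which was scarce in WT, was 10.2-fold more abundant in *TbxtinsASAY/insASAY* cells and did not differ beyond the spread in *TbxtΔexon6/+* cells. It lies on chromosome 10 (62133090 to 62134763, plus strand, GRCm38) and was counted 30 and 19 times in the WT libraries, 259 and 245 times in *TbxtinsASAY/insASAY*, 29 and 94 times in *TbxtΔexon6/Δexon6* and 20 and 18 times in *TbxtΔexon6/+* libraries. Both *TbxtinsASAY/insASAY* libraries were far above every other library, the *TbxtΔexon6/+* libraries overlapped WT, and the *TbxtΔexon6/Δexon6* libraries lay above WT but differed 2.94-fold from each other. Mean levels were 0.895 ± 0.266 CPM (SD, n = 2) in WT and 9.20 ± 0.334 CPM (SD, n = 2) in *TbxtinsASAY/insASAY* cells, and the fitted log2 fold change was 3.35 (SE 0.339). The mean in *TbxtΔexon6/Δexon6* cells was 2.31 ± 1.61 CPM (SD, n = 2) and the log2 fold change 1.38 (SE 0.409). That value rests on the second clone, since it was 0.39 (SE 0.335) without it and 1.94 (SE 0.248) without the first. It passed both thresholds (given below) with all libraries, and did not without the second clone, without WT replicate 2 (1.11), with unstranded counts (1.28), in a fit of only these 2 genotypes (1.38) or under DESeq2 (1.38). In *TbxtΔexon6/+* cells the level was 0.746 ± 0.0152 CPM (SD, n = 2), with a log2 fold change of -0.26 (SE 0.514) against WT. *Neurog3* was also 12.3-fold more abundant in *TbxtinsASAY/insASAY* than in *TbxtΔexon6/+* cells, with a log2 fold change of 3.61 (SE 0.357).

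*Neurog3* is a single-exon gene that lies whole within *Fam241b*, which is transcribed from the opposite strand. The stranded counts separate the genes, and all 1674 bases of *Neurog3* are shared. *Fam241b* was counted 404 and 453 times in *TbxtinsASAY/insASAY* and 515 and 486 times in WT libraries, a log2 fold change of -0.23 (SE 0.0874, Benjamini-Hochberg adjusted p = 0.0459, edgeR quasi-likelihood), opposite in sign to that of *Neurog3* and short of the fold threshold. Only 2.00% to 2.63% of the stranded reads on *Neurog3* in *TbxtinsASAY/insASAY* libraries lay on the other strand. Genes of the endocrine programme that *Neurog3* starts in the pancreas were mostly not measurable: 5 of the 14 listed genes passed the filter, and *Ins1*, *Ins2*, *Gcg* and *Sst*, which encode islet hormones, had 0 reads in every library. A count of 0 allows up to 0.108 to 0.123 CPM in a library, by counting error alone. *Neurod1*, a direct target of *Neurog3* in the pancreas, had 0.970 ± 0.0567 CPM (SD, n = 2) in WT and 1.04 ± 0.0289 CPM (SD, n = 2) in *TbxtinsASAY/insASAY* cells, a log2 fold change of 0.10 (SE 0.297). *Insm1*, another target there, had a log2 fold change of -0.37 (SE 0.165) in *TbxtinsASAY/insASAY* cells, with a Benjamini-Hochberg adjusted p = 0.0783 in edgeR. *Chga*, which encodes chromogranin A of secretory granules, was the 1 called gene in each of the 3 lines and fell from 4.84 ± 0.260 CPM in WT to 2.62 ± 1.05 in *TbxtΔexon6/Δexon6*, 2.55 ± 0.363 in *TbxtΔexon6/+* and 3.27 ± 0.0356 in *TbxtinsASAY/insASAY* cells (SD, n = 2). Its Benjamini-Hochberg adjusted p in edgeR was 0.00768, 0.0068 and 0.0436. This 1 call is 20% of the 5 tested endocrine genes in each line, beside 12.7%, 13.5% and 21.3% of all tested genes. The medians of the 5 tested endocrine genes were -0.19, 0.40 and 0.10 in these lines, 2 of them opposite in sign to *Chga*. The *Chga* call was lost in *TbxtΔexon6/Δexon6* without WT replicate 2, in *TbxtΔexon6/+* without WT replicate 2 or *TbxtΔexon6/+* replicate 2, and in *TbxtinsASAY/insASAY* without any single WT, *TbxtinsASAY/insASAY* or *TbxtΔexon6/+* library and under DESeq2. Of the other neurogenins, *Neurog1* had at most 6 and *Neurog2* at most 3 reads in any library.

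*Foxb1*, which encodes a forkhead factor of the early neural plate and the mammillary body, was more abundant in all 3 mutant lines than in WT. It lies on chromosome 9 (69757710 to 69760940, minus strand) and was counted 24 and 17 times in WT, 54 and 108 times in *TbxtΔexon6/Δexon6*, 175 and 132 times in *TbxtΔexon6/+* and 150 and 119 times in *TbxtinsASAY/insASAY* libraries. No mutant library overlapped WT, *TbxtΔexon6/+* and *TbxtinsASAY/insASAY* overlapped each other, and the 2 *TbxtΔexon6/Δexon6* clones differed 1.81-fold. Means were 0.749 ± 0.165 CPM (SD, n = 2) in WT and 6.01 ± 0.870 CPM (SD, n = 2) in *TbxtΔexon6/+* cells, which is 7.97-fold in the fit (SE 0.299 on the log2 scale). The fitted ratio was 6.50-fold in *TbxtinsASAY/insASAY* cells (SE 0.305 on the log2 scale). The log2 fold change in *TbxtΔexon6/Δexon6* cells was 2.04 (SE 0.328), and 2.40 (SE 0.270) or 1.54 (SE 0.319) without the first or the second clone. *B230323A14Rik*, an antisense gene that overlaps 2201 bases of *Foxb1*, had 19 and 11 reads in *TbxtΔexon6/+* libraries and at most 4 in any other library. Its fitted log2 fold change of 3.84 in *TbxtΔexon6/+* cells rests on 2 and 0 reads in the WT libraries and is no measure of size. *B230323A14Rik* passed the filter on low counts only through the *TbxtΔexon6/+* libraries, where it was high, so its value is a description and not a test. *Foxb2*, the closest relative of *Foxb1*, had 0 reads in every library.

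*Gbx2* took 4 separate levels, lowest in WT and highest in *TbxtinsASAY/insASAY* cells. It lies on chromosome 1 (89927956 to 89931179, minus strand) and was counted 79 and 78 times in WT, 126 and 164 times in *TbxtΔexon6/Δexon6*, 237 and 213 times in *TbxtΔexon6/+* and 322 and 314 times in *TbxtinsASAY/insASAY* libraries. The libraries of no 2 genotypes overlapped, and pairs of libraries differed by 1.02-fold to 1.18-fold. Means were 2.88 ± 0.0364 CPM in WT, 5.56 ± 0.646 in *TbxtΔexon6/Δexon6*, 8.84 ± 0.189 in *TbxtΔexon6/+* and 11.6 ± 0.172 in *TbxtinsASAY/insASAY* cells (SD, n = 2). The log2 fold changes against WT were 0.95 (SE 0.145), 1.62 (SE 0.138) and 2.01 (SE 0.133) in the same order. The *TbxtΔexon6/Δexon6* value was 1.07 (SE 0.157) without the first and 0.83 (SE 0.167) without the second clone. *D130058E05Rik*, a noncoding transcript on the opposite strand that shares 946 bases with *Gbx2*, rose as well, from 3.15 ± 0.120 CPM in WT to 6.76 ± 0.830 in *TbxtΔexon6/+* and 5.95 ± 0.586 in *TbxtinsASAY/insASAY* cells (SD, n = 2), with 4.50 ± 1.10 CPM (SD, n = 2) in *TbxtΔexon6/Δexon6* cells. Its Benjamini-Hochberg adjusted p in edgeR was 0.000497, 0.00122 and 0.0491 in this order. The last call was lost under DESeq2, with unstranded counts, in a fit of only these 2 genotypes and without any single library other than *TbxtΔexon6/Δexon6* replicate 1, and the log2 fold change of 0.52 was 0.24 without *TbxtΔexon6/Δexon6* replicate 2. The overlapping gene was chosen from the annotation after the values were seen. It was highest in *TbxtΔexon6/+* cells, while *Gbx2* was highest in *TbxtinsASAY/insASAY* cells.

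*Irx3*, an Iroquois homeodomain factor that patterns the neural tube, was higher than WT in *TbxtΔexon6/+* cells and lower in the 2 lines altered on both alleles. It lies on chromosome 8 (91798525 to 91802067, minus strand) and was counted 238 and 213 times in WT, 156 and 133 times in *TbxtΔexon6/Δexon6*, 416 and 354 times in *TbxtΔexon6/+* and 138 and 114 times in *TbxtinsASAY/insASAY* libraries. Both *TbxtΔexon6/+* libraries were above and all 4 libraries of the other 2 lines below the WT libraries, and these 2 lines overlapped each other. Means were 8.26 ± 0.469 CPM in WT and 15.1 ± 0.906 CPM in *TbxtΔexon6/+* cells (SD, n = 2), and the log2 fold change was 0.87 (SE 0.132). The log2 fold change was -0.84 (SE 0.149) in *TbxtinsASAY/insASAY* and -0.57 (SE 0.146) in *TbxtΔexon6/Δexon6* cells. In *TbxtΔexon6/Δexon6* cells it was -0.39 (SE 0.144) without the second clone, short of the fold threshold of 0.5, and -0.75 (SE 0.150) without the first. Without WT replicate 1 it was -0.51 and no longer passed. *Irx3os*, on the opposite strand, had 6 to 20 reads per library and was not called in any of the 3 lines.

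*Pax6* and *Pax3*, paired-box factors of the neural plate that mark anterior and ventral (*Pax6*) and dorsal (*Pax3*) neural progenitors, were also highest in *TbxtΔexon6/+* cells. *Pax6*, on chromosome 2 (105668900 to 105697364, plus strand), was counted 83 and 57 times in WT, 43 and 50 times in *TbxtΔexon6/Δexon6*, 178 and 145 times in *TbxtΔexon6/+* and 62 and 39 times in *TbxtinsASAY/insASAY* libraries. The *TbxtΔexon6/+* libraries lay above all others, and WT overlapped *TbxtinsASAY/insASAY*. The mean was 2.56 ± 0.618 CPM in WT and 6.33 ± 0.575 CPM in *TbxtΔexon6/+* cells (SD, n = 2), and the log2 fold change was 1.31 (SE 0.207). The values of -0.52 (SE 0.248) in *TbxtΔexon6/Δexon6* (-0.48 and -0.56 without the first and the second clone) and -0.47 (SE 0.244) in *TbxtinsASAY/insASAY* cells did not pass the adjusted threshold. In *TbxtinsASAY/insASAY* cells the *Pax6* value was -0.84 and past both thresholds without *TbxtinsASAY/insASAY* replicate 1.

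*Pax3*, on chromosome 1 (78101267 to 78197134, minus strand), was counted 52 and 54 times in WT, 15 and 32 times in *TbxtΔexon6/Δexon6*, 85 and 81 times in *TbxtΔexon6/+* and 39 and 27 times in *TbxtinsASAY/insASAY* libraries. The *TbxtΔexon6/+* libraries were above and all 4 libraries of the other 2 lines below WT, with an overlap between those lines. The log2 fold change was 0.75 (SE 0.235) in *TbxtΔexon6/+*, -1.10 (SE 0.292) in *TbxtΔexon6/Δexon6* and -0.69 (SE 0.273) in *TbxtinsASAY/insASAY* cells, of which the last did not pass. *Pax3* in *TbxtΔexon6/+* cells lost the adjusted threshold without any single WT or *TbxtΔexon6/+* library, with values from 0.70 to 0.79, and under DESeq2. Without the first *TbxtΔexon6/Δexon6* clone the value of that line was -0.72 (SE 0.291) and without the second -1.67 (SE 0.354), and without WT replicate 2 it was -1.05 and no longer passed. The value in *TbxtinsASAY/insASAY* cells passed without either *TbxtΔexon6/Δexon6* library, without the filter on low counts, with a filter of 10 reads in every library and in a fit of only these 2 genotypes, at -0.68 to -0.70. With 15 to 85 reads per library, counting error is a large part of these values, and the 95% counting interval of the ratio of *TbxtΔexon6/+* to WT reads (exact conditional binomial) was 1.31 to 2.16 around 1.68. These intervals cover counting error only.

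*Pou3f2*, on chromosome 4 (22482780 to 22488366, minus strand), was counted 2 and 5 times in WT, 4 and 2 times in *TbxtΔexon6/Δexon6*, 20 and 16 times in *TbxtΔexon6/+* and 8 and 9 times in *TbxtinsASAY/insASAY* libraries. Both *TbxtΔexon6/+* libraries lay above all others, and *TbxtΔexon6/Δexon6* overlapped WT. Relative to depth, *TbxtΔexon6/+* libraries held 5.52 times the WT reads, with a 95% counting interval of 2.42 to 14.7. The gene passed the filter only through these libraries, so the interval describes counting error and is not a test. The ratio was 2.42 (0.954 to 6.90) in *TbxtinsASAY/insASAY* and 0.900 (0.250 to 3.13) in *TbxtΔexon6/Δexon6* cells, so counting error alone leaves the direction open in those lines. Its fitted log2 fold change of 2.42 (SE 0.494) in *TbxtΔexon6/+* cells became 3.21 without WT replicate 2. Its values of -0.15 in *TbxtΔexon6/Δexon6* and 1.24 in *TbxtinsASAY/insASAY* cells became 0.64 and 2.03 without that library, and the former was -0.76 and 0.33 without the first and the second *TbxtΔexon6/Δexon6* clone. Among its relatives, *Pou3f1* was far more abundant and is described with the neuronal genes below.

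*Nes*, which encodes the intermediate filament nestin of neural progenitors, was highest in *TbxtΔexon6/Δexon6* cells and lowest in *TbxtΔexon6/+* cells, where *Pax6*, *Pax3*, *Irx3* and *Pou3f2* lay above all other libraries. It lies on chromosome 3 (87971078 to 87980451, plus strand) and was counted 2484 and 2528 times in WT, 3349 and 5057 times in *TbxtΔexon6/Δexon6*, 1802 and 1668 times in *TbxtΔexon6/+* and 2858 and 3193 times in *TbxtinsASAY/insASAY* libraries. The libraries of no 2 genotypes overlapped, in the order *TbxtΔexon6/Δexon6*, *TbxtinsASAY/insASAY*, WT and *TbxtΔexon6/+* from high to low. Means were 161 ± 35.3 CPM in *TbxtΔexon6/Δexon6*, 110 ± 8.98 in *TbxtinsASAY/insASAY*, 91.9 ± 3.13 in WT and 68.2 ± 0.0374 in *TbxtΔexon6/+* cells (SD, n = 2). The log2 fold change against WT was 0.81 (SE 0.107) in *TbxtΔexon6/Δexon6*, 0.27 (SE 0.108) in *TbxtinsASAY/insASAY* and -0.43 (SE 0.111) in *TbxtΔexon6/+* cells, and only the first passed both thresholds. Without the first *TbxtΔexon6/Δexon6* clone the value of that line was 1.02 (SE 0.0549) and without the second 0.56 (SE 0.058).

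The 5 Mb on either side of *Nes* hold a large share of genes that were higher in *TbxtΔexon6/+* cells. Of 145 tested genes there, 59 were called (55 higher, 4 lower), which is 40.7% beside 13.5% of all tested genes, with a median log2 fold change of 0.44, while *Nes* itself had a value of -0.43. In the same window 13 genes were called in *TbxtΔexon6/Δexon6* (6 higher, 7 lower) and 25 in *TbxtinsASAY/insASAY* cells (10 higher, 15 lower), which is 8.97% and 17.2% beside 12.7% and 21.3% of all tested genes, with medians of -0.04 and -0.09. Around the other members the median in *TbxtΔexon6/+* cells ran from -0.04 to 0.17, the highest around *Irx3* (0.17, 8 of 79 genes called). The part of the region around *Nes* in its value in *TbxtΔexon6/+* cells was not tested. *Crabp2*, 17.7 kb from *Nes*, encodes a retinoic acid binding protein and rose in all 3 lines, from 5.12 ± 0.666 CPM in WT to 24.2 ± 3.53 CPM in *TbxtΔexon6/+* cells (SD, n = 2), and the log2 fold change was 2.24 (SE 0.138, Benjamini-Hochberg adjusted p = 2.01e-07, edgeR quasi-likelihood). In *TbxtΔexon6/Δexon6* and *TbxtinsASAY/insASAY* cells its log2 fold changes were 0.93 and 0.99. *Bcan*, 7.1 kb on the other side, encodes the proteoglycan brevican and rose in *TbxtΔexon6/+* cells (log2 fold change 0.71) but fell in *TbxtΔexon6/Δexon6* (-0.67) and *TbxtinsASAY/insASAY* (-1.14) cells. Its call in *TbxtΔexon6/Δexon6* cells was lost without WT replicate 2 (-0.47), *TbxtΔexon6/Δexon6* replicate 2 (-0.51) or either *TbxtΔexon6/+* library (-0.67), that in *TbxtΔexon6/+* cells without WT replicate 1 (0.53) or *TbxtΔexon6/+* replicate 1 (0.78) or 2 (0.64), and both under DESeq2.

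**Figure D2:**
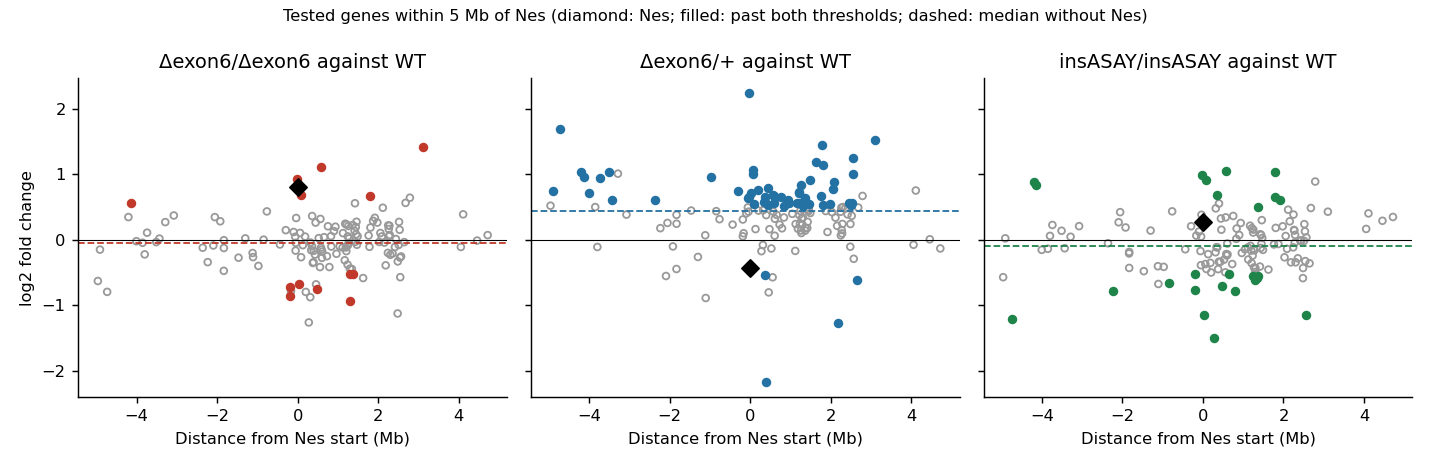
Log2 fold change against wild-type (vertical axis) of the tested genes within 5 Mb of Nes, by distance from the start of Nes in Mb (horizontal axis), with 1 panel per mutant line. Filled points passed both thresholds, the dashed line is the median without Nes, and the diamond is Nes. In Δexon6/+ cells the median lies at 0.44 and Nes at -0.43.

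Over all 16 nearest tested neighbours of the members, 1 on each side, 3 were called in *TbxtΔexon6/Δexon6* (2 higher, 1 lower), 6 in *TbxtΔexon6/+* (3 higher, 3 lower) and 4 in *TbxtinsASAY/insASAY* cells (3 higher, 1 lower). Over all tested genes 12.7%, 13.5% and 21.3% were called, which is a smaller share than among the 16 in each line, most so in *TbxtΔexon6/+* cells. Whether the 16 neighbours differ from all tested genes was not tested. *Crabp2* and *Bcan* lie in the window around *Nes*, where 40.7% of tested genes were called in *TbxtΔexon6/+* cells. Beside *Crabp2* and *Bcan* these were *Anxa2*, 265.9 kb from *Foxb1*, which encodes annexin A2 and rose in *TbxtΔexon6/Δexon6* (0.94) and *TbxtinsASAY/insASAY* (0.80) and fell in *TbxtΔexon6/+* cells (-0.63 on the log2 scale), *Epha4*, 586.2 kb from *Pax3*, which encodes an ephrin receptor and rose 3.37-fold in *TbxtΔexon6/+* cells, the pseudogene *Gm5424* near *Neurog3* and the lowly counted *Sgpp2* near *Pax3*, which both fell in *TbxtΔexon6/+* cells, and the pseudogene *Gm9619* near *Irx3*, which rose in *TbxtinsASAY/insASAY* cells. The neighbours of *Gbx2* (*Agap1* and *Iqca*), *Pax6* (*Rcn1* and *Elp4*) and *Pou3f2* (*Fbxl4* and *Gm11878*) were not called in any of the 3 lines, nor were *Tspan15* beside *Neurog3*, *Bnip2* beside *Foxb1* and *Crnde* beside *Irx3*. The *Sgpp2* call rests on 3 to 13 reads per library and was lost without any single WT, *TbxtΔexon6/+* or *TbxtinsASAY/insASAY* library, and that of *Gm9619* was lost without WT replicate 1 (1.01) or *TbxtinsASAY/insASAY* replicate 2 (0.57), both also under DESeq2.

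Read against all genes, the counts of members past both thresholds (0.05 for the adjusted p and 0.5 for the size of the log2 fold change) follow from how the members were listed and are given for completeness. In *TbxtΔexon6/Δexon6* cells 6 of the 8 passed (4 higher, 2 lower), where 12.7% of the 17049 tested genes did (6.12% higher, 6.59% lower). In *TbxtΔexon6/+* cells 6 passed, all higher, beside 13.5% of tested genes (6.6% higher, 6.89% lower), and in *TbxtinsASAY/insASAY* cells 4 passed (3 higher, 1 lower), beside 21.3% (11.5% higher, 9.85% lower). Median log2 fold changes of the 8 were 0.33, 1.09 and 0.76, and those of all tested genes were -0.0096, -0.00059 and -0.0051. These counts and medians include *Pou3f2*, which entered the test only through the *TbxtΔexon6/+* libraries where it was high. Without it, 6, 5 and 4 of the other 7 passed and the medians were 0.81, 0.87 and 0.27. Between mutant lines, 8 members passed between *TbxtΔexon6/+* and *TbxtΔexon6/Δexon6* cells (22.2% of tested genes), 3 between *TbxtinsASAY/insASAY* and *TbxtΔexon6/Δexon6* cells (5.16%) and 6 between *TbxtinsASAY/insASAY* and *TbxtΔexon6/+* cells (27.5%), or 7, 3 and 5 without *Pou3f2*. The 3 that passed between *TbxtinsASAY/insASAY* and *TbxtΔexon6/Δexon6* cells were *Neurog3* and *Gbx2*, higher in *TbxtinsASAY/insASAY*, and *Nes*, lower in *TbxtinsASAY/insASAY* cells. The comparisons with WT share their control libraries, and those between lines share the mutant ones.

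**Figure D3:**
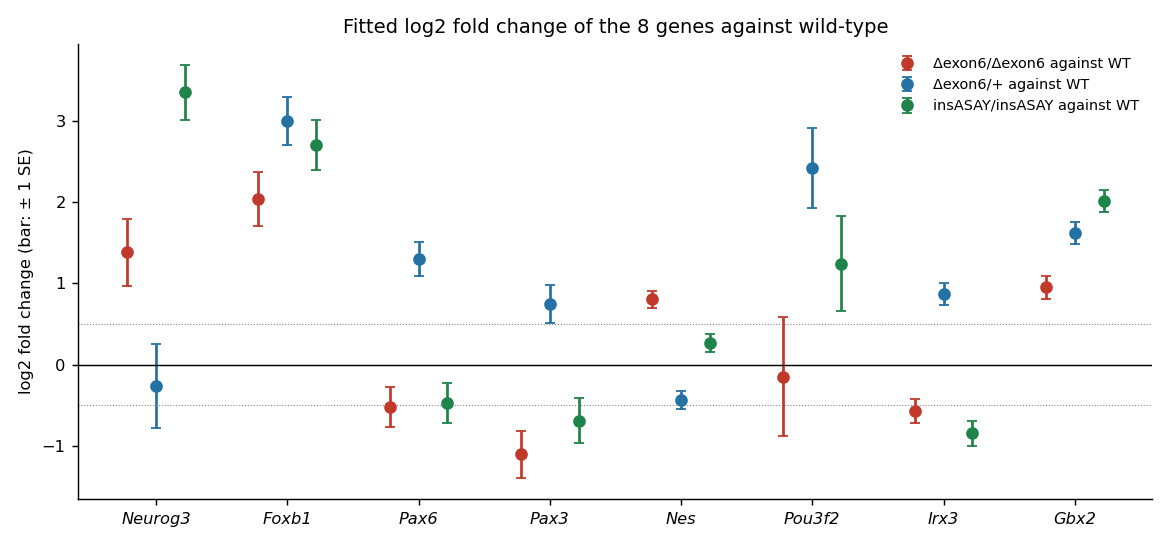
Fitted log2 fold change against wild-type (vertical axis) of the 8 genes in the 3 mutant lines, with bars of ± 1 SE and dotted lines at 0.5 in either direction. Foxb1 and Gbx2 lie above 0.5 in all 3 lines, and Irx3, Pax3 and Pax6 lie above 0 only in Δexon6/+ cells.

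**Figure D4:**
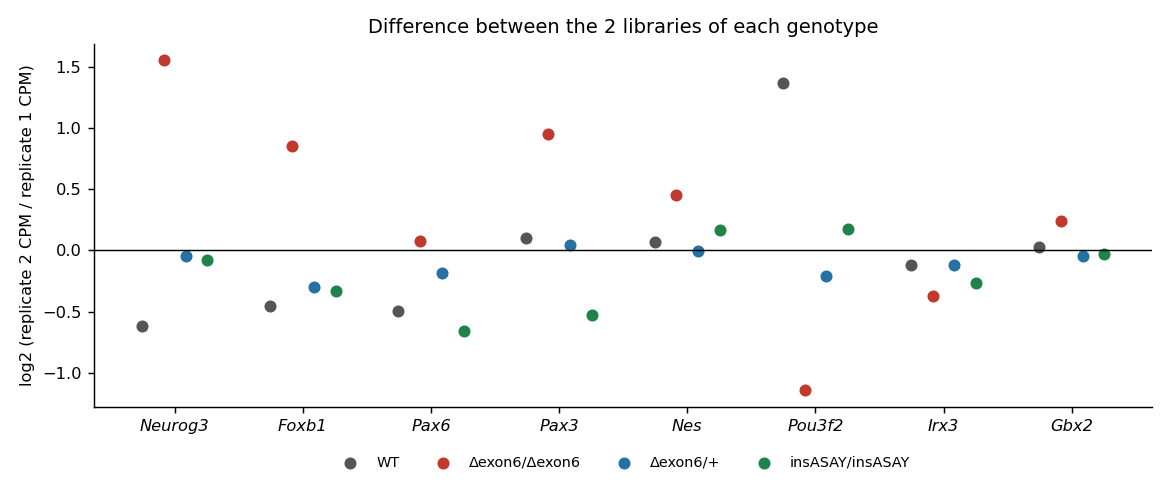
Log2 ratio of the 2 libraries of each genotype (replicate 2 over replicate 1, vertical axis) for the 8 genes. The widest gap of a gene with at least 10 reads in every library is that of Neurog3 between the Δexon6/Δexon6 clones, 2.94-fold.

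Genes that pattern the neural plate or mark neural progenitors, a list of 56 of which 43 passed the filter, were called more often higher than lower in *TbxtΔexon6/+* cells and more often lower than higher in the other 2 lines. In *TbxtΔexon6/+* cells 10 were called against WT (8 higher, 2 lower) by the edgeR quasi-likelihood test, which is 23.3% of the 43 beside 13.5% of all tested genes, with a median log2 fold change of 0.37 over the 43, where the median of all tested genes was near 0. *Sox1*, a defining factor of neural progenitors, rose from 5.84 ± 0.677 CPM in WT to 24.0 ± 0.590 CPM (SD, n = 2), a log2 fold change of 2.04 (SE 0.139, Benjamini-Hochberg adjusted p = 4.12e-07, edgeR quasi-likelihood). *Meis2*, a homeodomain cofactor, rose from 25.6 ± 1.57 to 78.6 ± 7.76 CPM and *Prom1*, a membrane protein of progenitors, from 39.8 ± 0.175 to 71.9 ± 4.98 CPM (SD, n = 2). *Nkx6-2* and *Olig1*, factors of the ventral neural tube and of oligodendrocytes, fell, with log2 fold changes of -0.90 and -0.68. The *Olig1* call was lost without *TbxtΔexon6/+* replicate 1 (-0.56).

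In *TbxtinsASAY/insASAY* cells 10 patterning genes were called (2 higher, 8 lower), which is 23.3% of the 43 beside 21.3% of all tested genes, with a median of -0.08, and the count was 6 without WT replicate 1. *Gbx1*, the close relative of *Gbx2*, rose from 1.74 ± 0.144 to 2.99 ± 0.164 CPM (SD, n = 2), a call lost without WT replicate 2 (log2 fold change 0.70). *Nkx6-2* fell from 5.25 ± 0.476 to 1.86 ± 0.315 CPM and *Irx2*, a relative of *Irx3*, from 11.3 ± 0.610 to 6.70 ± 0.407 CPM (SD, n = 2). In *TbxtΔexon6/Δexon6* cells 6 were called (2 higher, 4 lower), or 14.0% beside 12.7%, with a median of -0.24. *Prom1* and *Gbx1* rose (log2 fold changes of 0.72 and 0.99), and *Nkx6-2* fell (-0.90). That count rests on the clones: it was 17 (4 higher, 13 lower) without *TbxtΔexon6/Δexon6* replicate 1 and 3 without replicate 2, where *Prom1* (0.49) fell short of the fold threshold. Between *TbxtΔexon6/+* and *TbxtΔexon6/Δexon6* cells 21 of the 43 were called, 19 of them higher in *TbxtΔexon6/+* cells, and between *TbxtinsASAY/insASAY* and *TbxtΔexon6/+* cells 19, of which 16 were lower in *TbxtinsASAY/insASAY* cells. That is 48.8% and 44.2% of the 43, beside 22.2% and 27.5% of all tested genes. Summed markers of neural progenitors, a list of 7 that holds *Pax6* and *Nes*, ran from 237 to 238 CPM in WT, 280 to 310 in *TbxtΔexon6/Δexon6*, 293 to 313 in *TbxtΔexon6/+* and 241 to 252 in *TbxtinsASAY/insASAY* libraries. Of the 7, 1, 5 and 0 were called higher in the 3 mutant lines and 0 lower, beside 6.12%, 6.6% and 11.5% of all tested genes called higher. The 1 was *Nes*, and the 5 include *Pax6*. Both are members listed with results known, so these counts partly restate the member values. Without *Nes* the sums were 143 to 148 CPM in WT, 125 to 144 in *TbxtΔexon6/Δexon6*, 225 to 244 in *TbxtΔexon6/+* and 135 to 137 in *TbxtinsASAY/insASAY* libraries, so that the sum in *TbxtΔexon6/Δexon6* libraries lay above WT only with *Nes*. Most of each sum without *Nes* was *Sox2*, which is also in the list of pluripotent markers, and *Msi1*. Means of *Sox2* were 68.7, 56.4, 113 and 66.1 CPM in the same order. *Msi1*, which was not called in any line, had 61.4, 62.4, 74.6 and 52.2 CPM. Summed neural crest markers, 5 of 6 tested, ran from 11.9 to 12.0 CPM in WT, 7.61 to 7.74 in *TbxtΔexon6/Δexon6*, 13.4 in *TbxtΔexon6/+* and 7.32 to 7.62 in *TbxtinsASAY/insASAY* libraries.

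Proneural and neuronal genes, 35 of 49 tested, moved in both directions in every line. In *TbxtinsASAY/insASAY* cells 14 were called (9 higher, 5 lower), in *TbxtΔexon6/Δexon6* cells 12 (8 higher, 4 lower) and in *TbxtΔexon6/+* cells 8 (5 higher, 3 lower, and 5 in all without WT replicate 1) by the edgeR quasi-likelihood test, with medians of -0.0032, 0.02 and 0.12 on the log2 scale. The median in *TbxtinsASAY/insASAY* cells was near 0 and below it although more genes were called higher than lower. The counts make 40.0%, 34.3% and 22.9% of the 35 tested genes, beside 21.3%, 12.7% and 13.5% of all tested genes. In *TbxtinsASAY/insASAY* cells *Ina*, which encodes the neuronal filament internexin, rose 2.72-fold from 11.8 ± 0.410 CPM (SD, n = 2), and *Hes6*, a promoter of neurogenesis, and *Tubb3*, neuronal tubulin, had log2 fold changes of 0.71 and 0.51. *Gadd45g*, *Btg2* and *Ebf1*, which act downstream of proneural factors or in cell cycle exit, fell (-0.66, -0.63 and -1.86). The neurofilament genes *Nefm* (0.71) and *Nefl* (0.60) and *Pou3f1* (0.74) rose in *TbxtΔexon6/Δexon6* cells, while *Dll1*, a Notch ligand that proneural factors induce, fell from 41.9 ± 4.43 to 19.4 ± 2.90 CPM (SD, n = 2), with *Gadd45g* (-1.07) and *Ebf1* (-1.65). In *TbxtΔexon6/+* cells the adhesion genes *Ncam1* and *Cdh2* rose, *Ncam1* from 12.5 ± 1.36 to 43.5 ± 0.706 CPM (SD, n = 2) and *Cdh2* by 0.90 on the log2 scale, as did *Sox11*, a factor of early neurons (0.86). *Tubb3*, *Btg2* and *Ebf1* fell there, with log2 fold changes of -0.60, -0.57 and -0.87. The call of *Ebf1* in *TbxtΔexon6/+* cells was lost without WT replicate 1 (-0.88) or 2 (-0.85) or *TbxtΔexon6/+* replicate 2 (-0.61) and under DESeq2, that of *Tubb3* in *TbxtinsASAY/insASAY* cells without *TbxtinsASAY/insASAY* replicate 2 (0.44) and that of *Nefl* with unstranded counts. Summed markers of neurons ran from 86.5 to 88.2 CPM in WT, 91.9 to 97.1 in *TbxtΔexon6/Δexon6*, 73.4 to 77.6 in *TbxtΔexon6/+* and 93.4 to 99.5 in *TbxtinsASAY/insASAY* libraries, with 1 of 4 tested higher in *TbxtΔexon6/Δexon6* and *TbxtinsASAY/insASAY* and 1 lower in each line. The largest part of each sum was *Stmn2*, with means of 50.8, 49.6, 46.5 and 50.7 CPM in the same order. The differences mainly follow *Tubb3*, with 22.9, 33.3, 15.1 and 32.6 CPM. *Elavl3* had 3.77, 1.87, 2.69 and 1.92 CPM.

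Repressors that hold back proneural genes, 11 of 13 tested, were called 2 times in *TbxtΔexon6/Δexon6* (both higher), 3 times in *TbxtΔexon6/+* (2 higher, 1 lower) and 6 times in *TbxtinsASAY/insASAY* cells (5 higher, 1 lower), with medians of 0.32, 0.81 and 0.50. The counts make 18.2%, 27.3% and 54.5% of the 11, beside 12.7%, 13.5% and 21.3% of all tested genes. *Hes1*, a target of Notch signalling that represses neurogenins, rose in all 3 lines, from 3.63 ± 0.0769 CPM in WT to 7.48 ± 1.14 in *TbxtΔexon6/Δexon6*, 17.2 ± 0.680 in *TbxtΔexon6/+* and 7.54 ± 0.410 in *TbxtinsASAY/insASAY* cells (SD, n = 2). *Id3*, which encodes an inhibitor of basic helix-loop-helix factors, rose from 0.827 ± 0.251 to 2.61 ± 0.825 CPM in *TbxtΔexon6/Δexon6* and 5.02 ± 0.114 CPM in *TbxtinsASAY/insASAY* cells (SD, n = 2), with Benjamini-Hochberg adjusted p = 0.00112 and 1.14e-05 in edgeR. *Id1* rose in *TbxtinsASAY/insASAY* cells (0.87) and *Id2* in *TbxtΔexon6/+* cells (0.87). *Sox9*, a factor of gliogenesis and crest, fell in *TbxtΔexon6/+* (-0.75) and *TbxtinsASAY/insASAY* (-0.67) cells. The *Id1* call was lost without any single WT, *TbxtinsASAY/insASAY* or *TbxtΔexon6/+* library, and the *Sox9* calls without WT replicate 2 or either library of the mutant line, all 3 also under DESeq2. The count in *TbxtinsASAY/insASAY* cells was 3 without *TbxtinsASAY/insASAY* replicate 2 and 3 under DESeq2, and that in *TbxtΔexon6/+* cells was 5 without either *TbxtΔexon6/Δexon6* library. *Hes3* and *Hes5* had at most 2 reads per library.

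Neuromesodermal progenitor genes, 17 of 23 tested with *Tbxt* among them, were called 4 times in *TbxtΔexon6/Δexon6* (2 higher, 2 lower), 7 times in *TbxtΔexon6/+* (6 higher, 1 lower) and 9 times in *TbxtinsASAY/insASAY* cells (6 higher, 3 lower), with medians of -0.05, 0.40 and 0.09. The counts make 23.5%, 41.2% and 52.9% of the 17, beside 12.7%, 13.5% and 21.3% of all tested genes. *Wnt8a*, a Wnt ligand, rose from 10.1 ± 0.921 to 25.1 ± 2.27 CPM in *TbxtΔexon6/+* and 24.3 ± 2.28 CPM in *TbxtinsASAY/insASAY* cells (SD, n = 2). *Sp5*, a Wnt target, rose from 9.86 ± 0.201 to 46.9 ± 1.04 CPM in *TbxtinsASAY/insASAY* and 41.6 ± 21.1 CPM in *TbxtΔexon6/Δexon6* cells (SD, n = 2), with a log2 fold change of 2.52 or 1.44 in the latter without the first or the second clone, and *Cdx1*, a caudal homeobox gene, had a log2 fold change of 0.71 in *TbxtinsASAY/insASAY* cells. *Greb1* rose in *TbxtΔexon6/Δexon6* (0.61) and *TbxtΔexon6/+* (0.65) cells and *Sp8* in *TbxtΔexon6/+* cells (0.77). *Hoxb9*, a posterior Hox gene, fell in *TbxtΔexon6/+* (-0.56) and *TbxtinsASAY/insASAY* (-1.22) cells, *Fgf17* in *TbxtinsASAY/insASAY* cells (-1.44), and *Tbxt* in *TbxtΔexon6/Δexon6* cells (-0.81, Benjamini-Hochberg adjusted p = 0.036 in edgeR). The part of the deleted exon 6, which can give no reads in these cells, in the *Tbxt* value was not tested. The *Tbxt* call was lost without either WT or *TbxtinsASAY/insASAY* library, without *TbxtΔexon6/Δexon6* replicate 2 (-0.63), in a fit of only these 2 genotypes and under DESeq2. That of *Sp8* was lost without WT replicate 2 (0.69) or *TbxtΔexon6/+* replicate 2 (0.60), and that of *Hoxb9* in *TbxtΔexon6/+* cells without WT replicate 1 (-0.47) or *TbxtΔexon6/+* replicate 1 (-0.49). The count in *TbxtΔexon6/Δexon6* cells was 2 without WT replicate 1 and 7 without *TbxtΔexon6/Δexon6* replicate 1. The count in *TbxtΔexon6/+* cells was 4 without WT replicate 2 or *TbxtΔexon6/+* replicate 2, and that in *TbxtinsASAY/insASAY* cells was 5 without WT replicate 1. *Nkx1-2*, *Wnt3a*, *Msgn1* and *Rspo3* had at most 9 reads per library.

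**Figure D5:**
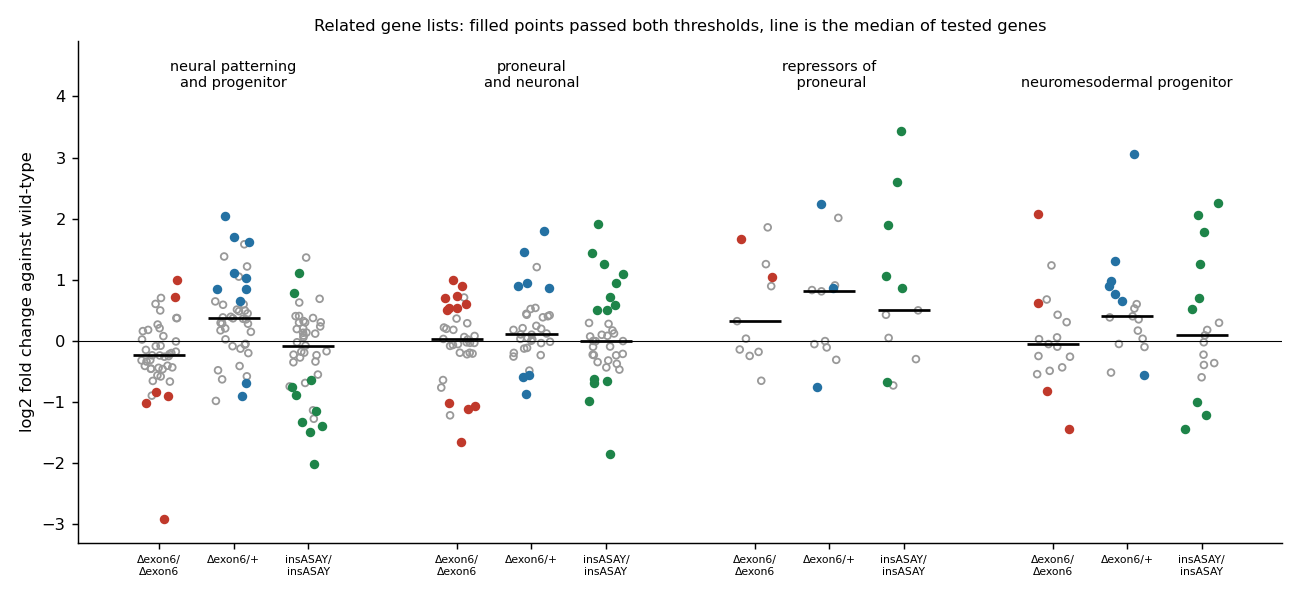
Log2 fold change against wild-type (vertical axis) of the tested genes of 4 lists in the 3 mutant lines. Filled points passed both thresholds, open points did not, and the line is the median of the tested genes, which is 0.37 for patterning genes in Δexon6/+ cells.

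Relatives of the 8 genes in their own families, 11 of 19 tested, were called 3 times in *TbxtΔexon6/Δexon6* (2 higher, 1 lower), 0 times in *TbxtΔexon6/+* and 4 times in *TbxtinsASAY/insASAY* cells (2 higher, 2 lower) by the edgeR test. That is 27.3%, 0% and 36.4% of the 11, beside 12.7%, 13.5% and 21.3% of all tested genes. In *TbxtΔexon6/+* cells 2 of the 11 had an unadjusted p under 0.05 and DESeq2 called 1. The medians were -0.41, 0.15 and -0.13 on the log2 scale, so the median in *TbxtΔexon6/Δexon6* cells was below 0 although 2 of the 3 called genes were higher. *Pou3f1* (also called Oct6), a relative of *Pou3f2* expressed in primed ES cells, rose from 22.8 ± 1.19 CPM in WT to 38.1 ± 5.91 in *TbxtΔexon6/Δexon6* and 32.4 ± 1.78 in *TbxtinsASAY/insASAY* cells (SD, n = 2). *Gbx1* rose in the same 2 lines, with log2 fold changes of 0.99 and 0.78. *Pax8*, a relative of *Pax6* and *Pax3*, fell in both, from 1.06 ± 0.184 to 0.524 ± 0.118 and 0.402 ± 0.0012 CPM (SD, n = 2), and *Irx2* fell in *TbxtinsASAY/insASAY* cells. The call of *Pou3f1* in *TbxtinsASAY/insASAY* cells was lost without WT replicate 2 (0.45), *TbxtinsASAY/insASAY* replicate 2 (0.45) or *TbxtΔexon6/Δexon6* replicate 1 (0.50). The call of *Pax8* in *TbxtΔexon6/Δexon6* cells was lost without either WT or *TbxtinsASAY/insASAY* library, without *TbxtΔexon6/Δexon6* replicate 2 and in a fit of only these 2 genotypes, and that in *TbxtinsASAY/insASAY* cells without WT replicate 1 (-1.20), both also under DESeq2. The 8 relatives that were not tested had at most 13 reads in any library.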

How the data were processed

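Stranded poly(A) libraries of 4 genotypes, 2 per genotype, were analysed as grouped by their labels. The authors mapped the reads to mm10 with STAR 2.7.2a and deposited the raw count of reads per gene, without normalization or filter. The submitters' processing notes also name DESeq2 1.40.2, and the gene annotation is not given in the sources used here. Each file holds 3 columns of counts. Column 4, the strand that the kit reads, was used, since the other strand held 4.11% to 4.78% of the stranded reads. The 4 summary lines in 7 files, which hold 26.2% to 29.0% of the reads, were left out. Of 48440 identifiers, 48058 were found in GENCODE M21 (GRCm38), 40606 with the same version, which gave symbols and coordinates.

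Counts were fitted in R 4.3.3 with edgeR 4.0.16 (TMM, filterByExpr defaults: minimum count 10, minimum total 15, quasi-likelihood test, all 8 libraries, 1 coefficient per genotype), with Benjamini-Hochberg adjustment over 17049 tested genes. The SE of a log2 fold change was its size over the square root of F. Genes were called where the adjusted p was under 0.05 and the log2 fold change past 0.5 in size. On simulated counts for 17049 genes with the depths of the real libraries, 181 of 200 genes changed between *TbxtΔexon6/+* and wild-type were called, with 5 others and 0 between unchanged groups. Of these, 35 of 50 were called at a 1.5-fold and 49 of 50 at a 2-fold change. Only genes averaging 1 CPM or more were changed. The spread of a gene was set equal in all genotypes, so the wider spread of the *TbxtΔexon6/Δexon6* clones was not simulated. Counting intervals are exact conditional binomial ones.

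The 8 genes, the lists (neural patterning and progenitor, proneural and neuronal, repressors of proneural genes, neuromesodermal progenitor, endocrine, family relatives, and 8 lists of cell type markers) and the tests were chosen with earlier results of these data known. Of each list, up to 3 higher and 3 lower called genes with the smallest adjusted p and a mean of at least 1 CPM are named for each mutant line, apart from items not reported here. The nearest tested gene on each side of a member, called relatives, and the 3 genes most like each member over the 8 libraries (log2 CPM with a prior count of 2) are named too. *Neurod1*, *Insm1*, the genes with few or 0 reads, *Pax8* and the overlapping genes were named after their values were seen. Alternatives were DESeq2 1.42.0, its size factors, other filters, unstranded counts, a fit of 2 genotypes, the replicate number as a block, a prior count of 0.5 for likeness, and leaving out each library. The member counts without *Pou3f2* and the progenitor marker sum without *Nes* were added after the values were seen. Python 3.11.15, numpy 2.4.6, pandas 2.3.3, scipy 1.17.1 and matplotlib 3.10.9 were used for tables, intervals and plots.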

Additional observations from a re-analysis of the deposited data

Results flagged for a closer look

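Reads on the strand opposite to 2 of the genes, which the levels above do not use, exceeded those in wild-type. On the strand opposite to *Gbx2* there were 3.46 CPM in *TbxtΔexon6/+* and 2.74 CPM in *TbxtinsASAY/insASAY* libraries, against 1.45 CPM in wild-type. They made up 27.8% to 28.4%, 17.4% to 20.7% and 32.5% to 34.5% of the stranded reads on *Gbx2* in these genotypes. *D130058E05Rik* shares 946 bases with *Gbx2* on that strand. On the strand opposite to *Nes* there were 3.2 CPM in *TbxtΔexon6/Δexon6* libraries against 1.42 CPM in wild-type, or 1.62% to 2.20% against 0.957% to 2.05% of the stranded reads, and no annotated gene overlaps *Nes* on that strand.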

How the results depend on the processing

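Of 355 values of the fold changes of the 8 genes under other settings, 350 moved by less than 1 SD between replicates and none that was past both thresholds changed sign. The 5 others were *Pou3f2* without wild-type replicate 2 in all 3 lines and *Gbx2* with unstranded counts, at 0.76 in *TbxtΔexon6/Δexon6* and 1.89 in *TbxtinsASAY/insASAY* cells. With 2 libraries, leaving out 1 moves their mean by less than their SD, so the 350 are no measure of stability. *Neurog3* in *TbxtΔexon6/Δexon6* cells is among them, although its value of 1.38 became 0.39 and lost its call without the second clone. Of 315 counts of called genes under other settings, 289 were within 1.5 times the reported one. The cause of the others was not tested. Of 73 calls of single genes named beside the 8, 50 held under all settings that tested the gene. Repressors of proneural genes in *TbxtΔexon6/+* cells numbered 5 without the filter and 5 in a fit of only the 2 genotypes, against 3. Under DESeq2, repressors in *TbxtinsASAY/insASAY* cells numbered 3 against 6, neuromesodermal genes in *TbxtΔexon6/Δexon6* cells 2 against 4 and endocrine genes in *TbxtinsASAY/insASAY* cells 0 against 1.

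Leaving out 1 library at a time gave 4 to 6, 5 to 6 and 4 to 5 members past both thresholds in *TbxtΔexon6/Δexon6*, *TbxtΔexon6/+* and *TbxtinsASAY/insASAY* cells. In the same order the counts ran from 3 to 17, 7 to 12 and 6 to 12 for patterning genes, 9 to 14, 5 to 10 and 10 to 15 for proneural and neuronal genes, 2 to 3, 2 to 5 and 3 to 6 for repressors, 2 to 7, 4 to 8 and 5 to 9 for neuromesodermal genes, 0 to 1 in each line for endocrine genes, and 2 to 4, 4 to 6 and 3 to 4 for neighbours. A library that left a genotype with 1 sample was assumed to vary like the others.

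Replicate numbers are shared only by name. Deviations of same-numbered libraries correlated by -0.0097 to 0.0494. With the replicate number as a block, 2135, 2255 and 3610 genes were called in *TbxtΔexon6/Δexon6*, *TbxtΔexon6/+* and *TbxtinsASAY/insASAY* cells against 2167, 2299 and 3639, and the block changed no count of the lists by over 1.5 times, but ended the calls of *D130058E05Rik* in *TbxtΔexon6/Δexon6* and *Sgpp2* in *TbxtΔexon6/+* cells. Depth limits *Pou3f2*, *Pax3* and *Tbxt*, and 2 libraries per genotype limit all SEs.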

Other observations

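The 8 genes did not form 1 pattern over the 8 libraries. Pearson correlations of their log2 CPM, given as a description over 8 libraries that share genotypes and clones, were 0.95 for *Pax6* and *Irx3*, 0.88 for *Pax6* and *Pax3* and 0.93 for *Foxb1* and *Gbx2*. *Nes* ran against *Pax6* (-0.83), *Pax3* (-0.83) and *Irx3* (-0.83), and *Neurog3* ran against *Irx3* (-0.82). These values mostly restate the 4 genotype means.

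Among 14281 other tested genes averaging 1 CPM or more, those with a pattern most like each member over the 8 libraries were *Ccdc115*, *Ubxn8* and *Ubtf* for *Neurog3* (r of 0.99 each), *Aff3*, *Peli2* and *Phc2* for *Foxb1* (0.989 to 0.996), *Npnt*, *Ppargc1b* and *Arnt* for *Irx3* (0.996 each) and *Rtl8c*, *Dusp23* and *Mad1l1* for *Gbx2* (0.99 each). For *Pax6* they were *Dolpp1*, *Mtss1l* and *Dbp* (0.98 to 0.99), for *Pax3* *Map3k5*, *Gm6426* and *Chrna7* (0.97 to 0.98), for *Nes* ENSMUSG00000104475.1, *Mtmr6* and *Lpgat1* (0.991 to 0.995) and for *Pou3f2* *Arhgap36*, *Atl1* and *Atp2b4* (0.97 to 0.98). With a prior count of 0.5, *Phc2* and *Chrna7* left the 3 nearest. None of the listed neural genes is among these 24.

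Markers of endoderm, primitive streak and trophoblast were low. Summed endoderm markers, with *Ttr* and *Cer1* at 0 reads in every library, ran from 15.9 to 16.2 CPM in wild-type, 10.9 to 13.8 in *TbxtΔexon6/Δexon6*, 18.6 to 19.2 in *TbxtΔexon6/+* and 13.2 to 13.4 in *TbxtinsASAY/insASAY* libraries. Primitive streak and mesoderm markers summed to 16.3 to 18.6, 23.4, 10.2 to 12.1 and 16.98 to 20.9 CPM in the same order, with 4 of 8 tested. Most of each sum was *Eomes*, with means of 14.0, 20.4, 7.25 and 15.8 CPM, which is also in the trophoblast list. *Tbxt* had means of 1.63, 0.930, 1.84 and 1.08 CPM, so the sums mainly follow *Eomes*. Trophoblast markers summed to 34.0 to 37.4, 36.5 to 38.5, 25.7 to 27.6 and 28.3 to 31.8 CPM.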
